A study of Mus musculus with 4 samples.

Results

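Iron storage, iron uptake and export, the control of both, and the making of the membrane lipids attacked in ferroptosis were followed through 10 genes in the injured mouse kidney. The genes were taken by name from the deposited table of 54078 genes and other features: Fth1 and Ftl1, which encode the ferritin subunits, Ncoa4, Tfrc, Slc11a2, Slc40a1, Aco1, Ireb2, Acsl4 and Lpcat3. All 10 were found and all 10 were among the 15414 genes that passed the filter on low values. They are found by name and no value enters the rule, but the list was drawn up with earlier results of these data known.

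RNA-sequencing was performed on kidneys of adult male mice at day 3 after ischemia/reperfusion (I/R), in which both kidneys were clamped for 30 min. The 2 WT libraries came from Apela flox/flox Cre-/- littermates, and the 2 KO libraries from Apela Ksp KO mice, in which Cre under the Ksp-cadherin promoter removes Apela, the gene of the peptide hormone ELA, from renal tubular epithelial cells. Each library was a pool of RNA from 3 mice, so that n = 2 counts pools. The limma p-values set a difference against the spread between these pools, drawn toward the spread of genes of similar level. All 4 pools were injured, no sham-operated kidney is analysed here, the study notes deaths by day 3 after this injury and fewer survivors among KO mice, and the strain is given as C57BL/6 x 129S4/SvJae in the sample labels and as C57BL/6 in the methods. Apela had an FPKM (fragments corrected for gene length and, here, for a library total that the authors scaled: it was 17203609 for WT replicate 2, above the 16045724 reads of that pool on genes, and below the reads on genes in the other 3 pools) of 5.27 and 4.57 in the WT pools and of 0.536 and 0.245 in the KO pools.

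Ferrous iron that is not in use is held in ferritin, a hollow shell of heavy (FTH1) and light (FTL1) chains, of which the heavy chain oxidizes the iron on entry. The cytosolic iron regulatory proteins, IRP1 (Aco1) and IRP2 (Ireb2), bind a hairpin in certain mRNAs, the iron-responsive element (IRE), when iron is scarce. Bound to the 5′ UTR they block translation, and bound to the 3′ UTR they protect the mRNA from decay, so part of this control does not show in mRNA levels. In ferroptosis, a death that renal tubular cells undergo after I/R, free iron drives the peroxidation of phospholipids with polyunsaturated tails, and ACSL4 and LPCAT3 load these tails into the membrane.

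The IRE hairpins found in the members are shown because they are sites through which iron can act on these mRNAs. The UTRs of the protein-coding transcripts of GENCODE M21 (GRCm38) were searched on the transcript strand for the pattern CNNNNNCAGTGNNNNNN, in which the 5 bases on either side of the loop of 6 had to pair in full, with G-U pairs allowed. Each sequence is printed with 5 further bases on each side and with the loop in capitals.
Fth1, 5′ UTR, chr19:9982733-9982759, plus strand: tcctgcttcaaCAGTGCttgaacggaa
Ftl1, 5′ UTR, chr7:45459780-45459806, minus strand: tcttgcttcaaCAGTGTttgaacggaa
Slc40a1, 5′ UTR, chr1:45925466-45925492, minus strand: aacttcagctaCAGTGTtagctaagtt
Tfrc, 3′ UTR, chr16:32631220-32631246, plus strand: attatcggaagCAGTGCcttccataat
Tfrc, 3′ UTR, chr16:32631599-32631625, plus strand: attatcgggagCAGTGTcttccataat
Tfrc, 3′ UTR, chr16:32631664-32631690, plus strand: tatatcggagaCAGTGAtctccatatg
Tfrc, 3′ UTR, chr16:32631711-32631737, plus strand: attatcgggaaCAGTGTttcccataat

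The pattern was thus found 7 times in 4 of the 10 genes. The storage genes Fth1 and Ftl1 and the exporter gene Slc40a1 held it once each in the 5′ UTR, 110, 148 and 202 nt before the start codon, while the uptake gene Tfrc held it 4 times in exon 19, the last of its exons, from 886 nt after the stop codon onwards. Over all protein-coding genes with such a UTR, it was found in 0.154% of 20141 in the 5′ UTR and in 0.618% of 20874 in the 3′ UTR. The other 6 genes, Slc11a2, Ireb2, Aco1, Acsl4, Lpcat3 and Ncoa4, held no match, which says only that these letters are not in their annotated UTRs under full pairing. The search can miss an IRE, since Epas1, listed here among transcripts with a known IRE, also held no match. The FPKM sum all transcripts of a gene and do not tell forms with and without a hairpin apart.

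In the comparison of KO and WT kidneys, 3 of the 10 genes, Acsl4, Fth1 and Tfrc, were higher in each KO pool than in either WT pool, with mean FPKM 1.99-, 1.49- and 1.25-fold higher, and none had both KO pools below. For Slc11a2, Aco1, Ncoa4, Ftl1, Lpcat3, Ireb2 and Slc40a1 the pools of the groups overlapped. No difference passed an adjusted p of 0.05 (limma on log2(FPKM + 0.5), Benjamini-Hochberg adjustment over all genes tested). The same held for the whole transcriptome, in which 0 of 15414 genes passed (0%), also with voom weights, while 974 genes (6.32%) had an unadjusted p under 0.05, and 970 with voom weights. Among the members only Acsl4 had an unadjusted p under that level. KO pools lay above the WT pools without overlap for 19.7% of all genes tested and below them for 18.1%, and the 3 and 0 of 10 members are to be read against these shares. With scaling by the reads on genes instead, an alternative chosen after seeing the data, the same 3 members lay above (12.9% of all genes tested) and Ireb2 lay below (24.1%).

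**Figure D1:**
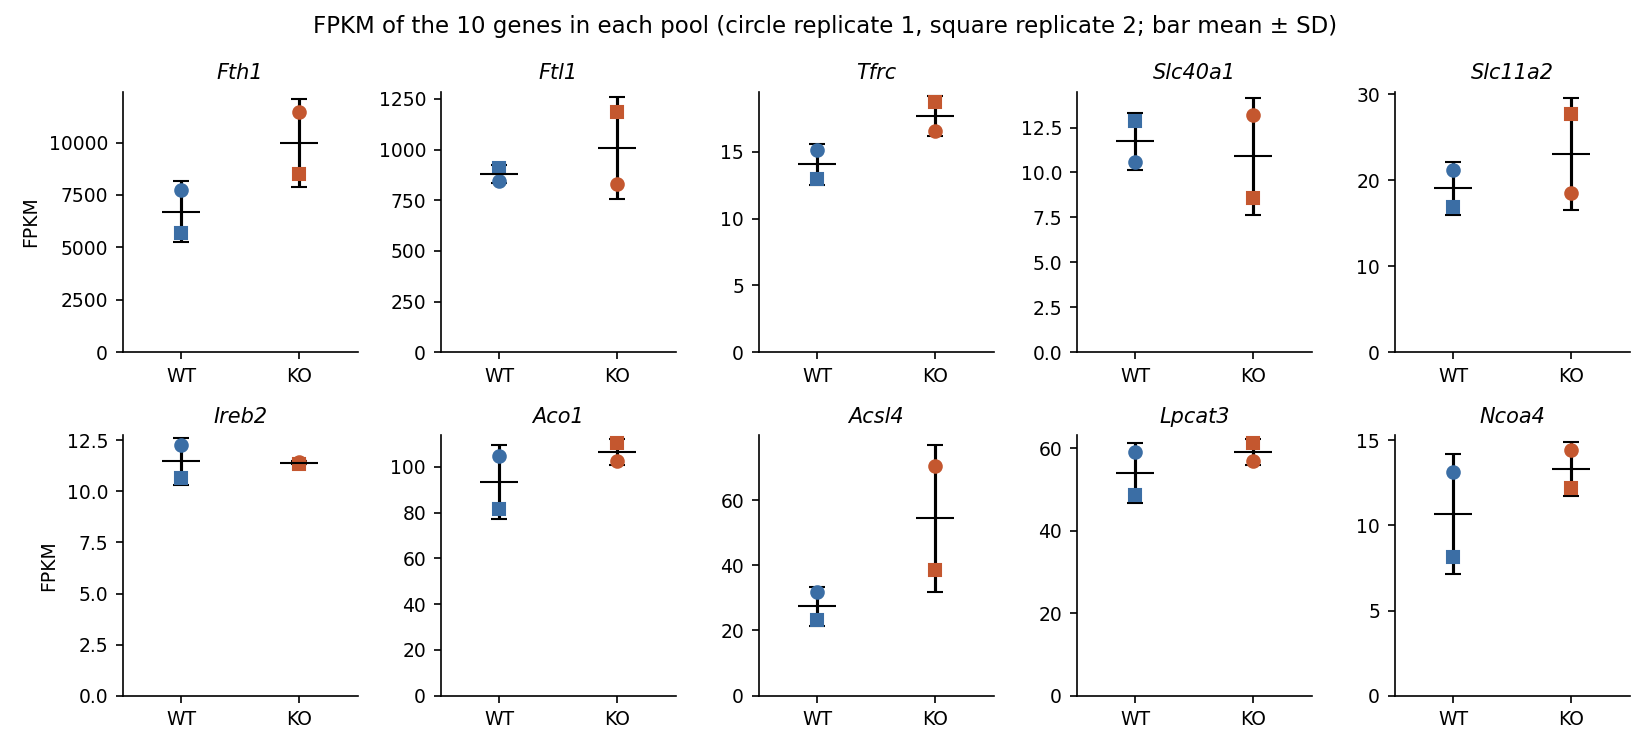
FPKM of the 10 genes in each pool, with WT in blue and KO in orange, circles for replicate 1, squares for replicate 2, and bars for the mean ± SD of 2 pools; each vertical axis starts at 0. Fth1, Tfrc and Acsl4 have both KO points above both WT points, and the points of the other 7 genes overlap.

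Ferritin was the most abundant of these transcripts. Fth1 (chr19:9982703-9985092, plus strand) had an FPKM of 7727 and 5685 in the WT pools and of 11459 and 8498 in the KO pools. It ranked 6 by mean FPKM among all features and took between 0.528% and 0.981% of all reads on genes. The KO pools were both above the WT pools, yet KO replicate 2 exceeded WT replicate 1 by less than the pools of either group differed from each other. The log2 fold change was 0.57 (SE 0.52, 95% interval -0.80 to 1.95, adjusted p = 0.854), and it lay between 0.35 and 0.80 when 1 pool was left out. This SE draws on other genes as well as on the pools of Fth1. For the same fold change the unadjusted p (limma) was 0.324 here, 0.0738 without the mean-variance trend and 0.859 without the filter.

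Ftl1 (chr7:45457944-45459884, minus strand), the light chain, had an FPKM of 847 and 909 in WT and of 828 and 1185 in KO kidneys. Only KO replicate 2 stood above the rest, and KO replicate 1 was the lowest of the 4 pools. The log2 fold change of 0.17 (SE 0.28, 95% interval -0.56 to 0.91, adjusted p = 0.921) turned to -0.083 without KO replicate 2. These reads are less certain than those of Fth1, because 90.6% of the 50-nt windows of the Ftl1 transcript also occur in transcripts of 17 other genes, above all Ftl1-ps1. The reads deposited for Ftl1-ps1 came to between 4.26% and 5.07% of those for Ftl1. For Fth1 the share of such windows was 4.01%.

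In FPKM the heavy chain thus exceeded the light chain by a factor of 9.12 and 6.25 in the WT pools and of 13.8 and 7.17 in the KO pools. These factors rest on the deposited gene lengths, 866 nt for Fth1 and 1340 nt for Ftl1. They also rest on the less certain reads of Ftl1, and how multiply mapped reads were handled is not given, so their size is uncertain. The ratios overlapped between groups (10.5 ± 4.71 in KO against 7.69 ± 2.03 in WT, SD, n = 2, exact permutation test, two-sided, p = 0.667, where the smallest p that 2 against 2 pools allow is 0.333). The difference of 0.40 on the log2 scale became -0.075 without KO replicate 1.

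Ncoa4 (chr14:32159865-32179855, plus strand), the receptor that carries ferritin to the lysosome so that its iron is released, had an FPKM of 13.2 and 8.17 in WT and of 14.4 and 12.2 in KO kidneys. WT replicate 1 lay between the KO pools, and WT replicate 2 was low. Its log2 fold change was 0.34 (SE 0.25, adjusted p = 0.832) with all pools and 0.011 without WT replicate 2. Of the windows of its transcript, 43.1% also occur in the processed pseudogene Gm6768, which was listed at an FPKM of 12.9 and 7.83 in WT and of 14.7 and 9.84 in KO kidneys, the same order of pools as Ncoa4, so that reads may be split between both.

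Among the iron transporters, Tfrc, which encodes the transferrin receptor that brings transferrin-bound iron into the cell, had an FPKM of 15.2 and 13.0 in WT and of 16.6 and 18.7 in KO kidneys. The WT pools were the low ones, but the gap from WT replicate 1 to KO replicate 1 was smaller than that between the replicates of either group. On the log2 scale the difference was 0.32 (SE 0.14, 95% interval -0.041 to 0.68, unadjusted p = 0.0713, adjusted p = 0.797), with values from 0.21 to 0.43 when a single pool was omitted. Tfrc (chr16:32608920-32632794) shared no window with another gene.

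Slc11a2 (chr15:100387898-100425072, minus strand), whose product DMT1 moves ferrous iron across membranes, had an FPKM of 21.2 and 16.9 in WT and of 18.5 and 27.7 in KO kidneys. As for Ftl1, KO replicate 2 was the high pool, while KO replicate 1 lay between the WT pools. Its log2 fold change of 0.25 (SE 0.24, adjusted p = 0.862) was -0.035 without KO replicate 2.

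Slc40a1 (chr1:45908068-45926523, minus strand), which encodes ferroportin, the only known cellular iron exporter, had an FPKM of 10.6 and 12.9 in WT and of 13.2 and 8.59 in KO kidneys. The high pools were WT replicate 2 and KO replicate 1, 1 from each group, and the log2 fold change was -0.13 (SE 0.24, 95% interval -0.75 to 0.50, adjusted p = 0.937). Its sign depended on the pools, from -0.42 without KO replicate 1 to 0.17 without KO replicate 2. A list of 8 cell cycle genes was high in the same pools, with a summed FPKM of 42.5 and 61.4 in WT and of 60.0 and 38.4 in KO kidneys, and its part in the result was not tested. In whole kidney RNA, fewer cells of a type and less RNA per cell cannot be told apart.

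Of the iron sensors, Aco1 (chr4:40143081-40198338), which is IRP1 when it lacks its iron-sulfur cluster and an aconitase when it holds it, had an FPKM of 105 and 81.8 in WT and of 103 and 110 in KO kidneys. Ireb2 (chr9:54863789-54912530), the sensor that is degraded when iron is plentiful, had 12.3 and 10.7 in WT and 11.5 and 11.3 in KO kidneys. In every pool the mRNA of Aco1 was thus more abundant per length than that of Ireb2, by a factor of 7.67 to 9.74. In FPKM the KO pools lay inside the WT range for Ireb2, with a log2 fold change of -0.0057 and a 95% interval from -0.33 to 0.31 (adjusted p = 0.996), and this interval bounds the change at less than that measured for Acsl4. For Aco1 the log2 fold change was 0.20 (SE 0.17, adjusted p = 0.854), and 0.023 without WT replicate 2.

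The lipid gene Acsl4 (chrX:142317993-142390535, minus strand), whose product activates arachidonic and adrenic acid and sets how readily cells undergo ferroptosis, had the largest difference of the 10 genes when all pools were used. Its FPKM was 31.7 and 23.1 in WT and 70.4 and 38.5 in KO kidneys. The lower KO pool exceeded the higher WT pool, but KO replicate 1 was 1.83-fold above KO replicate 2, so the mean of 54.4 ± 22.6 in KO against 27.4 ± 6.06 in WT (SD, n = 2) rests in good part on that pool. The log2 fold change was 0.93 (SE 0.34, 95% interval 0.042 to 1.82, unadjusted p = 0.0434, adjusted p = 0.785), which is rank 207 among the increases of all genes tested. Without KO replicate 1 it was 0.50, below the 0.54 of Slc11a2, and without KO replicate 2 the log2 fold change of Acsl4 was 1.36. The summed FPKM of 6 adipose markers had the same order of pools, with 1.48 and 0.312 in WT and 8.32 and 3.19 in KO kidneys. Nearly all of it was Cidec, Ucp1 was at 0 in every pool, and its part in the result was not tested.

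Lpcat3 (chr6:124663027-124704418, plus strand), which acts after ACSL4 and inserts the activated fatty acid into lysophospholipids, did not share this pattern. Its FPKM was 59.2 and 48.8 in WT and 56.9 and 61.4 in KO kidneys, with a log2 fold change of 0.14 (SE 0.15, 95% interval -0.26 to 0.53, adjusted p = 0.881). WT replicate 1 lay between the KO pools. Its 3′ end overlaps Emg1 on the opposite strand by 334 bp, and 12.8% of its windows occur there, while Emg1 had an FPKM of 8.03 to 8.85.

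**Figure D2:**
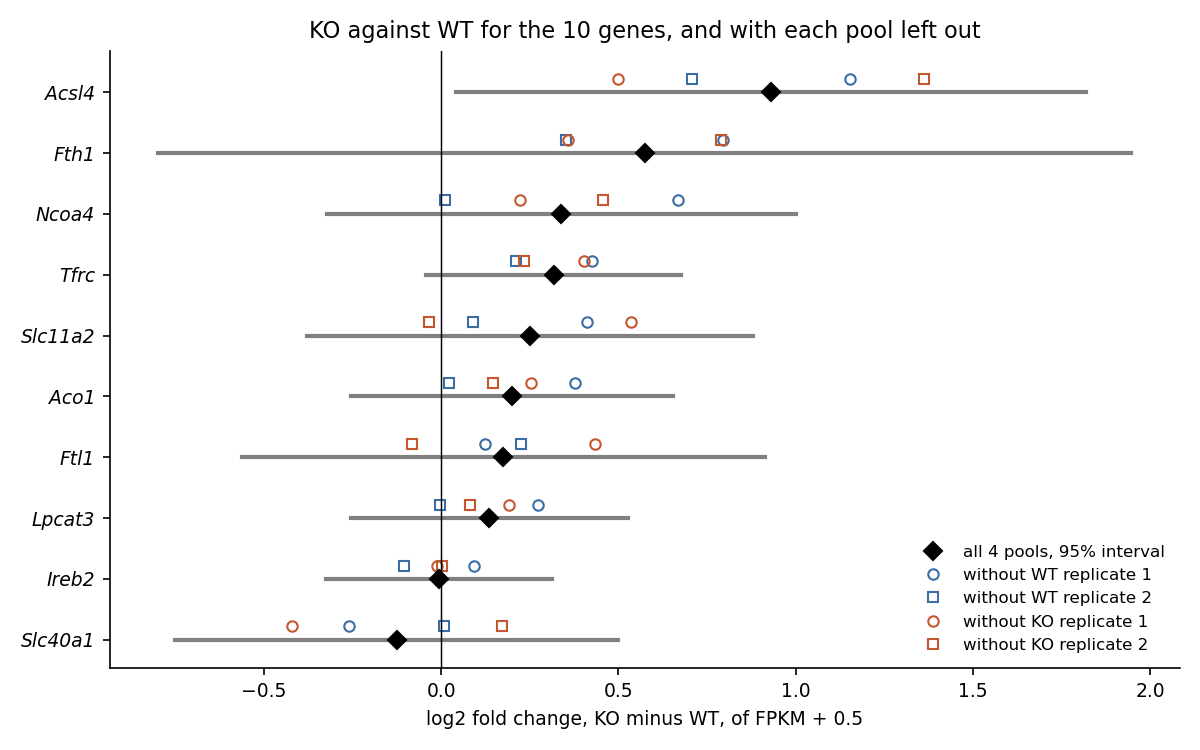
Log2 fold change of KO against WT for the 10 genes (black diamonds, grey lines for the 95% interval) and the same value with each pool left out (open symbols, blue for WT and orange for KO, circles for replicate 1 and squares for replicate 2). The interval excludes 0 for Acsl4, whose open symbols run from 0.50 to 1.36, and the open symbols of Ftl1, Slc11a2, Lpcat3, Ireb2 and Slc40a1 lie on both sides of 0.

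Across the 10 genes the median log2 fold change was 0.23, against 0.0071 for all genes tested, and 8 of the 10 values were above 0. WT replicate 2 carried much of this difference. It was the lowest of the 4 pools for 8 of the 10 genes, all but Ftl1 and Slc40a1, against 30.7% of all genes tested. As a share of reads on genes it was the lowest for 7, now without Ireb2, against 18.7%, and the median of the 10 was then 0.15. With the deposited scaling, the median of the 10 was 0.056 without that pool and 0.39 without WT replicate 1. Without WT replicate 2, Fth1, Tfrc and Acsl4 had both KO pools above the remaining WT pool, 3 of 10 genes against 34.3% of all genes tested, and for 1 member, against 32% of all genes, both KO pools were below it.

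WT replicate 2 also differed in its cell type markers. Among 10 proximal tubule markers, 5 were lowest in this pool and 5 in KO replicate 1. Their summed FPKM was 6162 in WT replicate 2 and 7596 to 11356 in the others, but most of it was Kap, and the other 9 summed to 2380 and 1775 in WT and to 1559 and 2011 in KO kidneys. Of the same 10 markers, 4 had both KO pools below both WT pools. The summed FPKM of 5 thick limb and distal tubule markers was 952 in WT replicate 2 and 1107 to 1378 in the others. For 5 collecting duct markers it was 292 in WT replicate 2 and 356 to 440 in the others. Of macrophage markers, 10 of the 12 were highest in WT replicate 2, with a sum of 470 against 189 to 232. The share of mitochondrial reads was 5.20% there and 5.68% to 6.45% in the other pools. The part of these differences in the values of the 10 genes was not tested. Kidney markers were abundant in every pool, while the adipose markers summed to no more than 8.32 in FPKM, which bears on the mention of adipose tissue in the text that accompanies the series.

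Within this shared low pool the genes differed in where they were high. Aco1 and Lpcat3 had the most similar pattern over the 4 pools, with a root mean square difference of 0.042 between their centred log2 values, and Tfrc was nearest to Aco1 (0.080). Fth1 and Ncoa4 were nearest to each other (0.16), and both, like Acsl4 and Slc40a1, were highest in KO replicate 1. Ftl1 and Slc11a2, like Tfrc, Aco1 and Lpcat3, were highest in KO replicate 2. Ftl1 was nearest to Slc11a2 (0.16), while Slc11a2 was nearest to Tfrc (0.15). The subunits of ferritin therefore had their high values in different KO pools. These are descriptions over 4 pools.

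**Figure D3:**
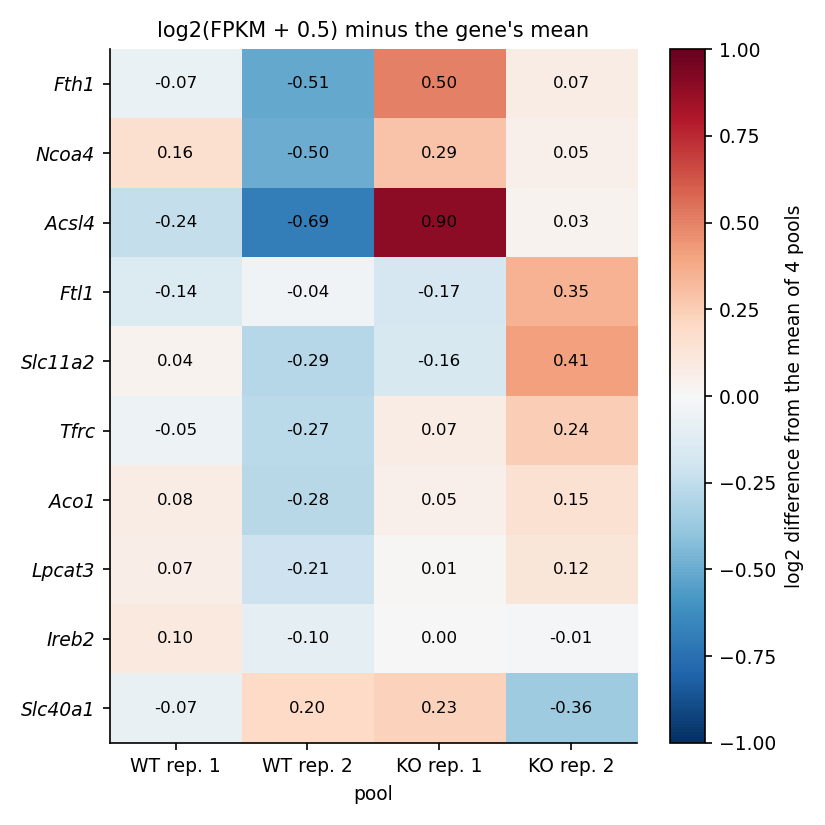
Log2(FPKM + 0.5) of each gene in each pool minus the mean of that gene over the 4 pools, with red for values above and blue for values below the mean. WT replicate 2 is the lowest pool for every gene but Ftl1 and Slc40a1, while KO replicate 1 is the high pool for Fth1, Ncoa4, Acsl4 and Slc40a1.

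A further 72 genes of iron handling and ferroptosis were grouped by role, of which 61 passed the filter. None passed an adjusted p of 0.05 (limma, smallest adjusted p 0.613), and 7 had an unadjusted p under 0.05, against 6.32% of all genes tested, 2 with higher and 5 with lower values in KO kidneys. KO pools lay above the WT pools for 21 genes and below them for 9, where 19.7% and 18.1% of all genes did so, and the median log2 fold change was 0.073. Without WT replicate 2 these counts were 26 and 20, against 34.3% and 32% of all genes tested, and with scaling by the reads on genes they were 15 and 17, against 12.9% and 24.1%. The counts by role are to be read against the same shares.

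Of 12 genes of heme and mitochondrial iron, 8 were higher in each KO pool than in either WT pool and none was lower in each (19.7% and 18.1% of all genes tested), with a median log2 fold change of 0.21. Among 8 endothelial markers these counts were 5 and 0, with a median of 0.26, and their part in the result was not tested. Hmox1, heme oxygenase, which frees iron from heme, had an FPKM of 60.3 and 75.5 in WT and of 81.8 and 106 in KO kidneys (log2 fold change 0.46, SE 0.20, adjusted p = 0.797, and 0.28 without KO replicate 2). Cisd1, which encodes an iron-sulfur protein of the outer mitochondrial membrane and had the highest level of this role, had 170 and 137 in WT and 120 and 174 in KO kidneys, with overlapping pools. Without WT replicate 2 the counts of this role were 8 above and 3 below (34.3% and 32% of all genes), and with scaling by the reads on genes 5 and 3 (12.9% and 24.1%).

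In ferroptosis defence, 6 of 12 genes were higher in each KO pool than in either WT pool and none was lower in each (19.7% and 18.1% of all genes tested). When WT replicate 2 was omitted, 7 lay above and 2 below (34.3% and 32%), and with scaling by the reads on genes 6 and 2 (12.9% and 24.1%). Gpx4, the glutathione peroxidase that reduces lipid peroxides, had an FPKM of 370 and 299 in WT and of 380 and 432 in KO kidneys (log2 fold change 0.28, SE 0.20, adjusted p = 0.828), which ranged from 0.13 to 0.44 on the log2 scale when WT replicate 2 or WT replicate 1 was omitted. Nqo1, a quinone reductase, had 57.9 and 26.1 in WT and 137 and 158 in KO kidneys (log2 fold change 1.90, SE 0.40, unadjusted p = 0.0060, adjusted p = 0.677). Its pools did not overlap, and the log2 fold change was 1.34 without WT replicate 2. Slc7a11, the cystine transporter subunit, was under the filter, with 17 to 34 reads in each pool.

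Among 15 genes of lipid substrates and peroxidation, 2 had both KO pools above and 4 had both below the WT pools (19.7% and 18.1% of all genes tested), and the median log2 fold change was 0.023. The counts were 5 and 6 without WT replicate 2 (34.3% and 32%), and with scaling by the reads on genes 1 and 5 (12.9% and 24.1%). Acsl1, another long-chain acyl-CoA synthetase, had an FPKM of 36.0 and 17.1 in WT and of 32.8 and 38.3 in KO kidneys, so that its log2 fold change of 0.50 was -0.022 without WT replicate 2. Sat1, the polyamine acetyltransferase, was the most abundant of this role, with 139 and 108 in WT and 153 and 127 in KO kidneys. Acsl3, Fads1 and Fads2 were picked after their values were seen. Acsl3, which activates monounsaturated fatty acids, had 5.73 and 5.51 in WT and 4.39 and 4.55 in KO kidneys (log2 fold change -0.30, SE 0.11, adjusted p = 0.785), a direction opposite to that of Acsl4.

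Of 11 uptake genes, 2 had both KO pools above and 4 had both below the WT pools (19.7% and 18.1% of all genes tested). These were 2 and 7 without WT replicate 2 (34.3% and 32%), and with scaling by the reads on genes 1 and 5 (12.9% and 24.1%). Lcn2, a secreted siderophore carrier and marker of tubular injury, had an FPKM of 133 and 95.2 in WT and of 249 and 273 in KO kidneys (log2 fold change 1.21, SE 0.21, unadjusted p = 0.0030, adjusted p = 0.613). The 8 tubular injury markers, Lcn2 among them, ran from a log2 fold change of -1.91 for Vcam1 to 1.21 for Lcn2, with a median of 0.11, and Havcr1 had -0.83. Lrp2 and Steap4 were also picked after their values were seen. Lrp2, the megalin receptor of the proximal tubule, had 99.9 and 91.0 in WT and 70.4 and 76.3 in KO kidneys, and Steap4, a metalloreductase, had 1.18 and 1.82 in WT and 0.777 and 0.390 in KO kidneys, from 20 to 99 reads in each pool. Neither passed the adjusted threshold (adjusted p = 0.785 for both). Lrp2 is also a proximal tubule marker, and the 10 markers of that list ran from a log2 fold change of -0.74 for Slc34a1 to 0.73 for Slc22a6, with a median of -0.12, both KO pools below for 4 and above for 1. The part of this in the value of Lrp2 was not tested.

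Among 4 export genes and 4 genes of iron chaperones and IRP control, 1 export gene, Hfe, was higher in each KO pool than in either WT pool, and 1 chaperone and control gene, Fbxl5, was lower in each (19.7% and 18.1% of all genes tested). Without WT replicate 2 the export genes had 2 above and 0 below, and the chaperone and control genes 0 and 2 (34.3% and 32%). With scaling by the reads on genes these were 1 and 0 for export and 0 and 2 for chaperones and control (12.9% and 24.1%). Hfe, a regulator of hepcidin that is named after its values were seen, had an FPKM of 10.7 and 8.62 in WT and of 12.6 and 12.0 in KO kidneys (log2 fold change 0.33, SE 0.14, adjusted p = 0.797). Cp, the ferroxidase ceruloplasmin, had an FPKM of 20.4 and 29.1 in WT and of 21.5 and 8.55 in KO kidneys, a log2 fold change of -0.82 with all pools and of -0.18 without KO replicate 2, which was also the low pool of Slc40a1. The tubular injury marker Havcr1 had the same order of pools, with 210 and 393 in WT and 249 and 105 in KO kidneys. No other marker of that list had this order. Of the 8 injury markers, 4 had both KO pools above and 1 had both below the WT pools. They summed to 7638 and 8593 in WT and to 9779 and 7575 in KO kidneys, and most of it was Spp1 (7026 and 7789 in WT, 8961 and 6872 in KO kidneys). The part of this in the value of Cp was not tested. Bmp6, a signal for hepcidin, had 32.2 and 37.6 in WT and 44.9 and 35.7 in KO kidneys. Hepcidin itself, Hamp, was listed with 1 read in 1 pool and 0 in the others. Pcbp1, an iron chaperone of ferritin, had 131 and 147 in WT and 132 and 128 in KO kidneys. Fbxl5, the ubiquitin ligase subunit that marks IRP2 for degradation, had 6.85 and 6.95 in WT and 5.95 and 6.59 in KO kidneys (log2 fold change -0.13, SE 0.12, adjusted p = 0.854, and -0.063 without KO replicate 1).

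**Figure D4:**
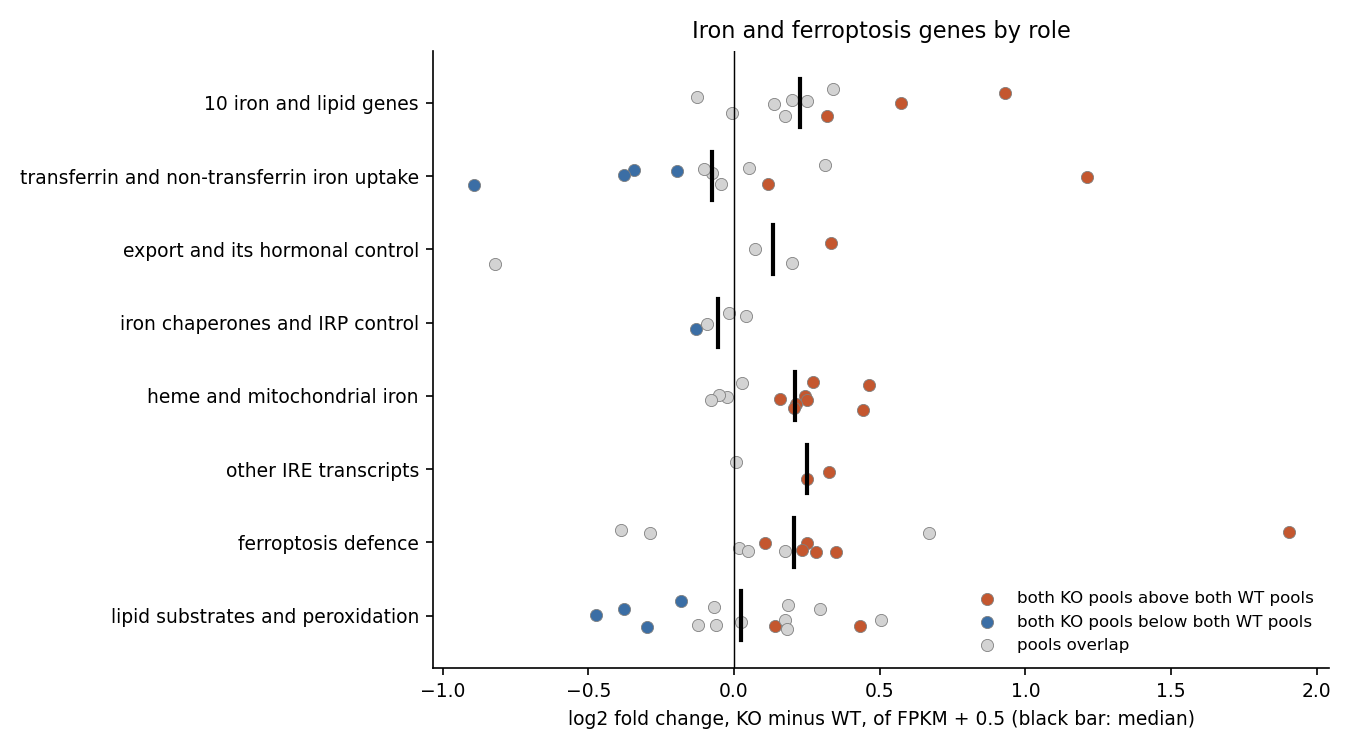
Log2 fold change of KO against WT for the 10 genes and for the 61 other tested genes by role, with 1 point for each gene, black bars for medians, orange for both KO pools above both WT pools, blue for both below and grey for overlap (IRE, iron-responsive element; IRP, iron regulatory protein). The heme and mitochondrial iron role has 8 orange points and no blue ones, and the uptake and lipid roles have 4 blue points each.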

How the data were processed

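The authors deposited a table of FPKM with the position and length of each gene. The submitters' processing notes name HISAT2 2.0.5, mm10 and GRCm38.p6, and the counting tool, its strand setting and its handling of multiply mapped reads are not given in the sources used here. FPKM times length, divided by 1 step per library, gave whole reads for 100% of nonzero values, within 0.01 of a read, and 16045724 to 16927742 reads per library fell on genes. KO and WT were compared by limma 3.58.1 (R 4.3.3) on the log2 scale after a pseudocount of 0.5 was added, where the mean FPKM reached 0.5, with a mean-variance trend (prior degrees of freedom 2.62), two-sided, and Benjamini-Hochberg adjustment over 15414 genes. In simulated data for this comparison (15414 genes), the fit called 52 of 100 genes changed 2-fold, 100 of 100 changed 4-fold and 14 of 15214 unchanged genes. In the measured data it called 0 of 15414 genes. Apela, the deleted gene, had a log2 fold change of -2.62 (SE 0.22, adjusted p = 0.466, limma) and was not called. How closely the simulation matches the measured pools was not tested. The fall of Apela was larger than the simulated 4-fold change and was still missed. The simulated shares therefore do not tell what share of real changes the fit would find in the measured pools. Coordinates of 97.1% of 53620 shared genes, 9 of the 10 members among them, were identical in GENCODE M21. Python 3.11.15, pandas 2.3.3, numpy 2.4.6 and scipy 1.17.1 were used. The 10 genes and all lists were chosen with earlier results of these data known. All 10 were named, and from each role the genes with the highest mean FPKM and the largest absolute log2 fold change, except for 1 role whose gene is not reported here. Alternatives were other pseudocounts (0.1, 1), no or a stricter filter (mean FPKM of 1), quantile and TMM scaling, scaling by the reads on genes (added after seeing the data), no trend, voom weights on the recovered reads, the replicate number as a block, an unadjusted p, and the omission of each pool, where the lone pool was assumed to vary like the others.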

Additional observations from a re-analysis of the deposited data

How the results depend on the processing

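No gene passed an adjusted p of 0.05 under any alternative run, and for the 10 genes the smallest adjusted p over the alternatives was 0.379, for Ncoa4 (limma). With an unadjusted p under 0.05 there were 974 genes, 1 member and 7 other iron and ferroptosis genes, and omitting WT replicate 1 gave 1720 genes, omitting WT replicate 2 gave 687. The replicate numbers did not pair the samples (correlation of same-numbered deviations -0.0017), and the replicate block gave 0 genes at an adjusted p of 0.05 and 932 at an unadjusted p. Fth1, Tfrc, Aco1, Acsl4 and Ncoa4 kept their direction under all 14 alternatives, although quantile normalization lowered Fth1 to 0.34. The sign of 5 members turned when 1 pool was left out: Ftl1 to -0.083 without KO replicate 2 (range over omitted pools -0.083 to 0.43), Slc40a1 to 0.0091 without WT replicate 2 and 0.17 without KO replicate 2 (-0.42 to 0.17), Slc11a2 to -0.035 without KO replicate 2 (-0.035 to 0.54), Ireb2 to 0.092 without WT replicate 1 and 0.0013 without KO replicate 2 (-0.10 to 0.092), and Lpcat3 to -0.0018 without WT replicate 2 (-0.0018 to 0.27). So did Cisd1, to 0.075 without WT replicate 1 and 0.19 without KO replicate 1 (-0.34 to 0.19), and Acsl1, to -0.022 without WT replicate 2 (-0.022 to 1.03). The median of the 10 ranged from 0.056 to 0.39, and the log2 difference of the Fth1 to Ftl1 ratio ranged from -0.075 without KO replicate 1 to 0.87 without KO replicate 2. Without WT replicate 2, an alternative chosen after seeing the data, genes with both KO pools below the WT pools went from 0 to 1 of the members, from 9 to 20 of the other genes, from 0 to 3 in heme and mitochondrial iron and from 0 to 2 in ferroptosis defence, since only 1 WT pool then has to lie above, and from 2791 to 4926 (18.1% to 32%) of all genes tested. With scaling by the reads on genes, also chosen after seeing the data, genes below were 1 of the members, 17 of the other genes, 3 in heme and mitochondrial iron and 2 in ferroptosis defence, genes above in heme and mitochondrial iron went from 8 to 5, and of all genes tested 1994 lay above and 3711 below. The causes of the other changes were not tested. With 2 pools a group, the upper ends of the 95% intervals of the members reached from 0.31 for Ireb2 to 1.95 for Fth1 on the log2 scale.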

Other observations

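Fth1 lies beside the fatty acid desaturase genes on chromosome 19, and these neighbours were looked at after their values were seen. The direction of Fth1 itself is not established, since its 95% interval runs from -0.80 to 1.95. Rab3il1, which lies between Fth1 and the desaturase genes, had a log2 fold change of -0.44 (SE 0.20, adjusted p = 0.797, limma). Of 7 other named genes within 250 kb of Fth1 that reached a mean FPKM of 1, 4 (Rab3il1, Fads1, Fads2 and Fads3) had both KO pools below both WT pools, against 18.1% of all genes tested, and the pools of Incenp (-0.069), Tmem258 (-0.063) and Myrf (-0.19) overlapped. Fads2 and Fads1 make arachidonic acid, the substrate of ACSL4, from linoleic acid together with an elongase. The nearer end of Fads2, where its transcript stops, lies 79.1 kb beyond the end of Fth1 (chr19:10064164-10101503, minus strand) and had an FPKM of 59.6 and 56.8 in WT and of 43.5 and 45.9 in KO kidneys (log2 fold change -0.38, SE 0.12, unadjusted p = 0.0253, adjusted p = 0.785, limma). Fads1 (chr19:10182888-10196870, plus strand) had 34.5 and 33.9 in WT and 23.9 and 25.1 in KO kidneys (log2 fold change -0.47, SE 0.11, unadjusted p = 0.0084, adjusted p = 0.708, limma). In both genes the replicates of a group lay closer to each other than to any pool of the other group, and with 1 pool left out the log2 fold change stayed between -0.51 and -0.44 for Fads1 and between -0.41 and -0.34 for Fads2. Both genes were named because their unadjusted p (limma) was under 0.05, and this closeness goes into that p, so it is no further evidence. Fads3 had 61.8 and 67.1 in WT and 58.8 and 54.1 in KO kidneys. Neither Fads1 nor Fads2 was lowest in WT replicate 2, the low pool of most of the 10 iron and lipid genes.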
